A study of Mus musculus with 6 samples.

Results

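RNA-seq of sorted P14 CMs was used to describe 9 genes that mark muscle proteins for turnover or hold them in place, *Trim63*, *Trim54*, *Trim55*, *Fbxo32*, *Fbxo40*, *Asb2*, *Klhl31*, *Klhl40* and *Klhl41*. The list was drawn up from known function, as the ubiquitin ligases and Kelch proteins found mainly in striated muscle, and all 9 were found among the 23337 genes of the deposited table. *Klhl40* and *Klhl41* stood there under the older symbols Kbtbd5 and Kbtbd10. Wild-type mice received AAV9-cTNT-SRF-2A-GFP (SRF-OE) or AAV9-cTNT-GFP (GFP) at P1, at 5e8 vg per g, a dose at which the virus reaches only a part of the CMs. The cardiac troponin T promoter drives both vectors in CMs, and GFP+ CMs were isolated by collagenase perfusion of the heart at P14 and purified by FACS. The labels list 3 libraries in each group, but under the header of the first SRF-OE library stand gene lengths in bp (0 zeros, lowest value 20), which leaves 5 libraries: 2 of SRF-OE (replicates 2 and 3) and 3 of GFP.

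Ubiquitin ligases attach ubiquitin to chosen proteins, most often to send them to the proteasome. The MuRF proteins TRIM63 (MuRF1), TRIM55 (MuRF2) and TRIM54 (MuRF3) are RING-type ligases that sit on the sarcomere and on microtubules. The F-box proteins FBXO32 (atrogin-1) and FBXO40, the ankyrin repeat protein ASB2 and the BTB-Kelch proteins KLHL31, KLHL40 and KLHL41 are instead substrate receptors that work through cullin scaffolds. TRIM63 and FBXO32 are best known as genes that rise when muscle wastes, and KLHL40 and KLHL41 for stabilising thin filament proteins of skeletal muscle.

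Total counts were 15927653 and 21298558 in the SRF-OE libraries and between 14137433 and 23159631 in the GFP libraries. *Srf*, the gene delivered, was at 360 and 748 CPM (counts scaled to library size with TMM factors) in SRF-OE and at 67.3 and 85.1 CPM in GFP replicates 2 and 3. The library labelled GFP1 had 338 CPM, against its label, so the fits of the 9 genes are given with the 5 libraries as labelled and without that library. Gene lengths stand under the first SRF-OE header and gene symbols under the header Chr, and whether the column names are 1 place off was not tested. If they were, the library labelled GFP1 would be SRF-OE, and the replicate numbers would change. The names were kept as deposited, so group means, fold changes and replicate numbers below hold for the libraries as named. The 12 cardiomyocyte markers examined were all abundant, with a summed level of 119860 and 105370 CPM in SRF-OE, 127020 CPM in the library labelled GFP1 and 164010 and 185400 CPM in GFP replicates 2 and 3. In sorted bulk RNA, fewer cells of a type and less RNA per cell cannot be told apart.

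Differences between SRF-OE and GFP were tested with edgeR (quasi-likelihood, p-values adjusted over all genes tested). The 9 genes were not of one kind. *Asb2*, *Fbxo40* and *Trim54* had the largest differences, each with a lower mean in SRF-OE. *Klhl41*, *Trim55* and *Trim63* were lower by less, and *Fbxo32*, *Klhl31* and *Klhl40* had means close to those of GFP. With the 5 libraries, 0 of the 9 genes passed an adjusted p of 0.05 in either direction, as did 0% of the 13754 genes tested. At an unadjusted p under 0.05, 4 of the 9 were lower (*Trim54*, *Fbxo40*, *Asb2* and *Klhl41*) and 0 higher, where 7.59% of all genes were lower and 6.35% higher (13.9% in all). DESeq2 called 1 of the 9, *Asb2*, lower (log2 fold change -0.83, adjusted p = 0.031), among 19.7% of the 1079 genes to which its filter gave an adjusted p, and 4 of the 9 were among those genes. Without the library labelled GFP1, *Fbxo40* alone of the 9 passed, as lower, against 0.970% of 13397 genes called lower and 1.98% called higher (2.95% in all). At an unadjusted p under 0.05, 5 of the 9 were then lower and 0 higher, where 14.0% of all genes were lower and 14.4% higher (28.3% in all). DESeq2 then called 3 of the 9 lower, *Asb2*, *Trim54* and *Fbxo40*, against 6.16% of all genes. With no filter on low counts 5 of the 9 were lower, against 6.09%, and scaled to cardiomyocyte markers 0, against 0.597%. In the fit blocked on replicate, 3 of the 9 were lower with the 5 libraries and 2 without the library labelled GFP1, against 3.14% and 2.93%. The library labelled GFP1 is the only 1 with its number, so the block also takes it out of the comparison.

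The promoters of the 4 genes lower at an unadjusted p under 0.05 with the 5 libraries are shown because SRF binds DNA through the CArG box, a pair of C and a pair of G around 6 A or T bases. Each sequence is the 250 bases before a RefSeq start site (GRCm38.p6), written 5′ to 3′ on the gene's strand, with capitals on matches to the CArG box, to the MEF2 motif, to the E-box letters CAGCTG or to GTAAACA, a core of FOXO sites, all searched on both strands.
Asb2, chr12:103356002-103356251, minus strand: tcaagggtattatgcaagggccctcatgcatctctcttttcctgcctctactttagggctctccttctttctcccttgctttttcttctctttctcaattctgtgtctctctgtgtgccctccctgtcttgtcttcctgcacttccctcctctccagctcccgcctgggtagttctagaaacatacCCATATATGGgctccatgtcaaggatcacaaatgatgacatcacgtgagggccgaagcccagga
Fbxo40, chr16:36990468-36990717, minus strand: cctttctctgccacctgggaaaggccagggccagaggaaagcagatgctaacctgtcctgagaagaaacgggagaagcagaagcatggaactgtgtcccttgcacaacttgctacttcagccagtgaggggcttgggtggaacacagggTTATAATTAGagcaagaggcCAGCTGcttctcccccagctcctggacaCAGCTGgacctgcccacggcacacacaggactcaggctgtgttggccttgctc
Trim54, chr5:31116362-31116611, plus strand: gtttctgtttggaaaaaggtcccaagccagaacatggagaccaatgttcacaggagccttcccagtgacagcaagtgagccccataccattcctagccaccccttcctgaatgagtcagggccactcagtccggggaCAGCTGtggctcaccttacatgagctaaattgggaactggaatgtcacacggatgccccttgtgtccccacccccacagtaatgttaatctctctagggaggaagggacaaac
Klhl41, chr2:69669870-69670119, plus strand: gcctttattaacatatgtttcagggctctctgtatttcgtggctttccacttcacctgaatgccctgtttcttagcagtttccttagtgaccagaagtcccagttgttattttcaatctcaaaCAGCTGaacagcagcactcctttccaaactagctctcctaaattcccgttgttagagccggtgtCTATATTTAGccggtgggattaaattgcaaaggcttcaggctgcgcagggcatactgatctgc
The 1 CArG box among the 9 windows found for 7 of the genes was that of *Asb2*, whose letters CCATATATGG end 55 bases before the start. Of 32851 such windows in the table, 1.47% held a CArG box, 2.92% a MEF2 motif, 3.17% GTAAACA and 13.0% CAGCTG. *Fbxo40* and *Klhl41* held a MEF2 motif, and all but *Asb2* of the 4 sequences shown held CAGCTG. The same E-box letters were also in the windows of *Trim63* and *Klhl40*, which were not among those 4 genes. A further start site of *Asb2*, with its window at chr12:103338391-103338640, held none of the 4 motifs, and neither did the window of *Klhl31*. The further start site of *Fbxo40*, with its window at chr16:36979137-36979386, held CAGCTG but no MEF2 motif. *Trim63* held GTAAACA 188 bases before its start, in the reverse orientation. *Fbxo32* and *Trim55* had no entry. These are matches of letters, with no measurement of binding in these libraries.

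*Trim63*, *Trim54* and *Trim55* encode the MuRF family, of which MuRF1 is known to target troponin I and myosin binding proteins. *Trim54* lies on chromosome 5 of GRCm38 (31116712 to 31137630). It was at 49.0 and 69.9 CPM in SRF-OE, at 89.1 CPM in the library labelled GFP1 and at 97.1 and 118 CPM in GFP replicates 2 and 3. The groups did not overlap, and the library labelled GFP1 was the lowest of its group. The mean was 59.5 ± 14.8 CPM (SD, n = 2) against 101 ± 14.97 CPM (SD, n = 3), a log2 fold change of -0.77 (standard error 0.20, edgeR adjusted p = 0.35). Without the library labelled GFP1 it was -0.85 (standard error 0.20, edgeR adjusted p = 0.070). An antisense gene, Gm15469, shares 382 exonic bases with *Trim54*, and without a stated strand setting their reads cannot be told apart.

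*Trim55* (chromosome 3, 19644474 to 19692421) was at 79.4 and 66.7 CPM in SRF-OE, 78.7 CPM in the library labelled GFP1 and 100 and 102 CPM in GFP replicates 2 and 3. The library labelled GFP1 lay between the SRF-OE libraries, and without it the groups did not overlap. The log2 fold change was -0.36 (standard error 0.16, edgeR adjusted p = 0.38) and -0.46 (standard error 0.13, edgeR adjusted p = 0.091) without that library. *Trim63* (chromosome 4, 134315120 to 134329629) was at 378 and 375 CPM in SRF-OE, 386 CPM in the library labelled GFP1 and 486 and 445 CPM in GFP replicates 2 and 3. Both SRF-OE values were below every GFP value, although the gap to the library labelled GFP1 was small. Its log2 fold change was -0.22 (95% interval -0.58 to 0.13, edgeR adjusted p = 0.49), or -0.30 (-0.61 to 0.01, edgeR adjusted p = 0.19) without that library.
Per kb of gene length, *Trim63* made up 63.7% to 72.4% of the 3 MuRF transcripts in every library. The share of *Trim54* was 11.6% and 16.2% in SRF-OE and 16.8% to 20.8% in GFP, and that of *Trim55* 13.2% to 16.1% over the 5 libraries. These shares depend on the gene model, as the deposited length of *Trim55* is 1787 bp against 2595 bp of exons in GENCODE M21 basic.

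*Fbxo32* and *Fbxo40* encode F-box proteins, the receptor subunits of cullin 1 ligases, and FBXO40 is known to target the insulin receptor substrate IRS1. *Fbxo40* (chromosome 16, 36963460 to 36990467) was at 77.1 and 78.7 CPM in SRF-OE, 91.1 CPM in the library labelled GFP1 and 128 and 160 CPM in GFP replicates 2 and 3. The SRF-OE libraries were close together and below every GFP library. The mean was 77.9 ± 1.15 CPM (SD, n = 2) against 126 ± 34.4 CPM (SD, n = 3), a log2 fold change of -0.70 (standard error 0.23, edgeR adjusted p = 0.35). Without the library labelled GFP1, *Fbxo40* fell by 0.88 on the log2 scale (standard error 0.14, edgeR adjusted p = 0.048). That call was lost without GFP replicate 2 (adjusted p = 0.23) or GFP replicate 3 (adjusted p = 0.27), and with upper quartile scaling (adjusted p = 0.052).
*Fbxo32* (chromosome 15, 58175879 to 58214932) did not share this pattern. Its level was 146 and 172 CPM in SRF-OE, 132 CPM in the library labelled GFP1 and 138 and 154 CPM in GFP replicates 2 and 3, so the groups overlapped. The log2 fold change was 0.16 (95% interval -0.16 to 0.49, edgeR adjusted p = 0.57), or 0.12 (-0.21 to 0.46, edgeR adjusted p = 0.59) without the library labelled GFP1. Per kb of length, *Fbxo32* stood at 0.685 and 0.791 of the level of *Fbxo40* in SRF-OE, at 0.527 in the library labelled GFP1 and at 0.393 and 0.351 in GFP replicates 2 and 3. The deposited length of *Fbxo40* is 2518 bp, against 5495 bp of exons in the GENCODE M21 basic annotation. The size of these ratios, and which gene is the higher, therefore depend on the gene model. An antisense gene, Gm15943, shares 186 exonic bases with *Fbxo32*, with the same limit of an unstated strand setting.

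*Asb2* (chromosome 12, 103321142 to 103356001) encodes a receptor of cullin 5 ligases known to target filamins. It was at 580 and 418 CPM in SRF-OE, 611 CPM in the library labelled GFP1 and 918 and 1117 CPM in GFP replicates 2 and 3. Every SRF-OE value was below every GFP value, and the library labelled GFP1 lay close to the higher SRF-OE value. The mean was 499 ± 115 CPM (SD, n = 2) against 882 ± 255 CPM (SD, n = 3), a log2 fold change of -0.82 (standard error 0.29, edgeR adjusted p = 0.35). Without the library labelled GFP1 it was -1.02 (95% interval -1.54 to -0.51, edgeR adjusted p = 0.057).

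The Kelch proteins are receptors of cullin 3 ligases. *Klhl41* (chromosome 2, 69670120 to 69684230), which encodes a partner of nebulin in skeletal muscle, was at 68.3 and 80.4 CPM in SRF-OE, 83.9 CPM in the library labelled GFP1 and 110 and 108 CPM in GFP replicates 2 and 3. The groups did not overlap, with the library labelled GFP1 just above the SRF-OE libraries. The log2 fold change was -0.44 (standard error 0.17, edgeR adjusted p = 0.36) and -0.55 (standard error 0.13, edgeR adjusted p = 0.068) without that library.
*Klhl40* (chromosome 9, 121777607 to 121783818), whose protein stabilises nebulin and leiomodin 3, had the fewest counts of the 9 genes, from 395 to 864 in a library. It was at 29.2 and 37.8 CPM in SRF-OE and at 30.5, 29.96 and 31.2 CPM in GFP replicates 1, 2 and 3. The GFP values lay between the SRF-OE values, and the log2 fold change was 0.13 (95% interval -0.23 to 0.50, edgeR adjusted p = 0.69), or 0.14 (-0.27 to 0.55, edgeR adjusted p = 0.62) without the library labelled GFP1. A gene on the other strand, Gm47108, shares 456 exonic bases with *Klhl40*, the longest such overlap among the 9 genes.
*Klhl31* (chromosome 9, 77636500 to 77660127), needed for skeletal muscle integrity in mice, was at 546 and 785 CPM in SRF-OE, 773 CPM in the library labelled GFP1 and 576 and 660 CPM in GFP replicates 2 and 3. The SRF-OE libraries were the lowest and the highest of the 5, with a log2 fold change of -0.01 (95% interval -0.53 to 0.51, edgeR adjusted p = 0.99), or 0.11 (-0.40 to 0.62, edgeR adjusted p = 0.75) without the library labelled GFP1. Per kb of length, the ratio of *Asb2* to *Klhl31* was 2.47 and 1.24 in SRF-OE, 1.84 in the library labelled GFP1 and 3.71 and 3.93 in GFP replicates 2 and 3.

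**Figure D1:**
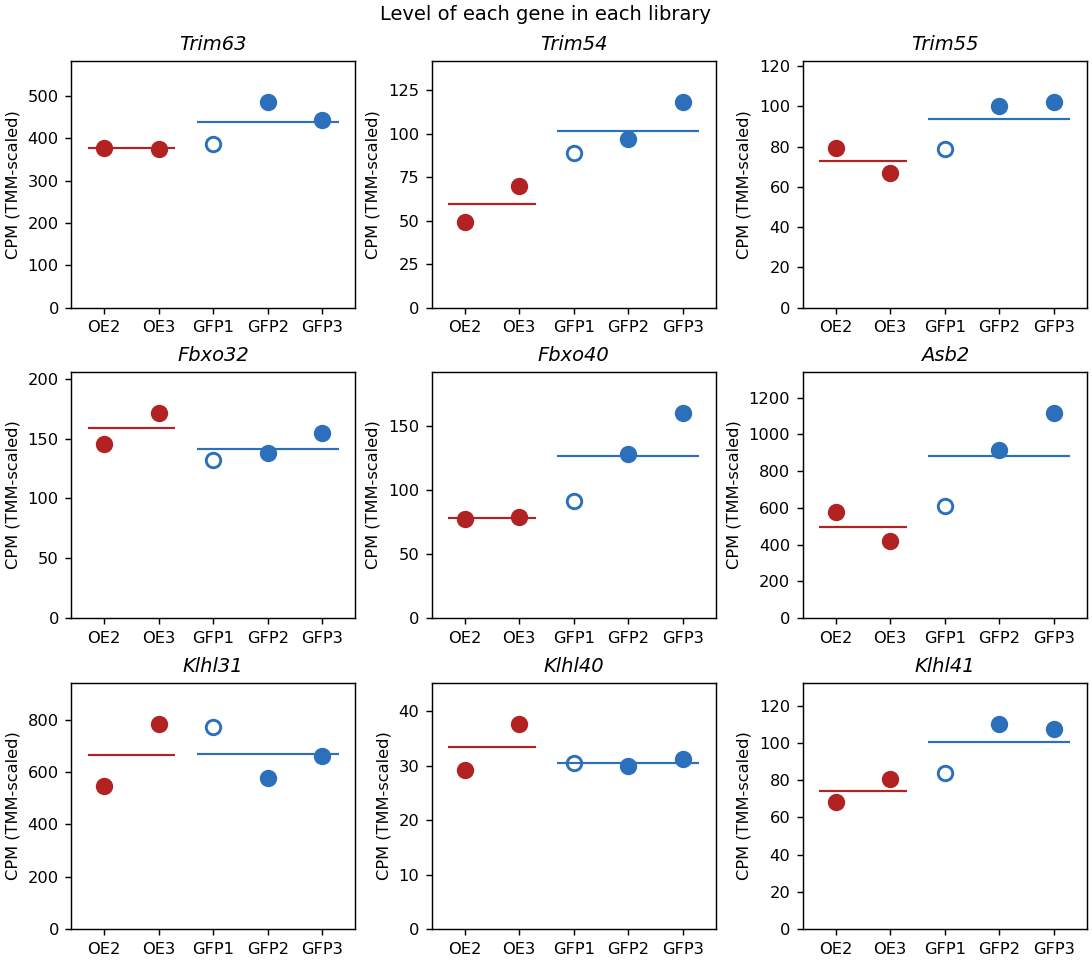
Level of each of the 9 genes (CPM scaled with TMM factors, vertical axes from 0) in SRF-OE replicates 2 and 3 (red) and GFP replicates 1 to 3 (blue, the library labelled GFP1 open), with lines at the group means. The SRF-OE points lie below every GFP point for Trim63, Trim54, Fbxo40, Asb2 and Klhl41, an order that holds for none of these 5 once levels are taken relative to cardiomyocyte markers, and overlap them for Trim55, Fbxo32, Klhl31 and Klhl40.

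Groups without overlap, SRF-OE below GFP, were seen for 5 of the 9 genes with the 5 libraries, where 17.3% of all genes tested had that order and 16.1% the opposite one (33.4% in all). For 6 of the 9 it held without the library labelled GFP1, where 30.2% of all genes did so and 30.8% had the opposite order (61.0% in all). In neither case was a gene of the 9 higher in SRF-OE without overlap. The median log2 fold change of the 9 genes was -0.36 with the 5 libraries and -0.46 without the library labelled GFP1, while the median of all genes was 0.03 and 0.04. When the log2 level was rescaled so that GFP replicates 2 and 3 averaged 0 and SRF-OE averaged 1, the library labelled GFP1 stood at 0.32 for *Trim54*, 0.68 for *Klhl41*, 0.72 for *Asb2*, 0.74 for *Fbxo40*, 0.77 for *Trim55* and 0.88 for *Trim63*. For these 6 genes it was therefore nearer to SRF-OE in all but *Trim54*. For *Fbxo32*, *Klhl40* and *Klhl31*, whose SRF-OE means lay close to those of GFP, it stood at -1.25, -0.02 and 3.01.
Replicate 2 of both groups expressed *Xist*, at 147 and 88.8 CPM, with 0 CPM of the Y-linked *Ddx3y*, and the other 3 libraries had under 1 CPM of *Xist* and at least 94.8 CPM of *Ddx3y*, the pattern of female and male cells. Within the female pair the log2 ratio of SRF-OE to GFP was -0.99 for *Trim54*, -0.73 for *Fbxo40* and -0.66 for *Asb2*, and between the male replicates 3 it was -0.76, -1.02 and -1.42. Against the library labelled GFP1, also male, SRF-OE replicate 3 had smaller ratios, of -0.35, -0.21 and -0.55. *Klhl41* (-0.69 and -0.42), *Trim63* (-0.36 and -0.25) and *Trim55* (-0.34 and -0.61) were also lower within each pair, and against the library labelled GFP1 they had -0.06, -0.04 and -0.24. *Klhl31* and *Klhl40* differed in sign between the pairs, at -0.08 and 0.25 for *Klhl31* and -0.04 and 0.28 for *Klhl40*, and *Fbxo32* was at 0.08 and 0.15. With sex as a term in the fit of the 5 libraries, added after the data were seen, 0 of the 9 genes and 0% of all genes passed in edgeR. *Trim54* then had a log2 fold change of -0.74 (edgeR adjusted p = 0.28), *Fbxo40* -0.70 (0.29) and *Asb2* -0.88 (0.29). Without the library labelled GFP1, sex and replicate number cannot be told apart.

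**Figure D2:**
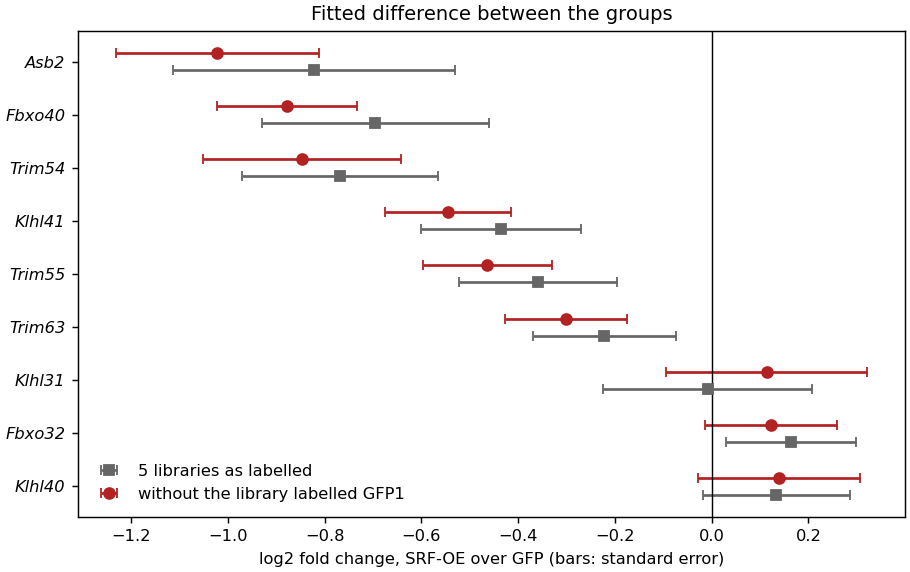
Fitted log2 fold change of SRF-OE over GFP (horizontal axis) for each gene, with bars for the standard error, from the 5 libraries as labelled (grey squares) and without the library labelled GFP1 (red circles). Asb2, Fbxo40 and Trim54 lie between -1.02 and -0.70, and Fbxo32, Klhl31 and Klhl40 within 0.2 of 0, under TMM scaling. Values of Klhl41, Trim55 and Trim63 turn positive when scaled to cardiomyocyte markers. On that scale the median of all genes was 0.49 with the 5 libraries and 0.66 without the library labelled GFP1.

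In level per kb of gene length, taken from the length column of the table, the order of the 5-library means was *Asb2* (271 CPM per kb), *Trim63* (219), *Klhl31* (107), *Trim54* (55.3), *Trim55* (47.8), *Fbxo40* (42.4), *Klhl41* (35.5), *Fbxo32* (21.4) and *Klhl40* (12.9). *Asb2* stood at percentile 98.3 and *Klhl40* at percentile 68.1 of the genes tested. Neighbours from *Trim54* down to *Klhl41* overlapped over the 5 libraries, as did *Asb2* and *Trim63*, while *Trim63*, *Klhl31* and *Trim54* did not overlap each other, nor did *Klhl41*, *Fbxo32* and *Klhl40*. *Asb2* was above *Trim63* in 4 libraries and below it in SRF-OE replicate 3, where the ratio was 0.781 against 1.76 in GFP replicate 3. *Trim55* and *Fbxo40* are counted on 1787 and 2518 bp in the table, against 2595 and 5495 bp of exons in the GENCODE M21 basic annotation, so their rank depends on the gene model.

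**Figure D3:**
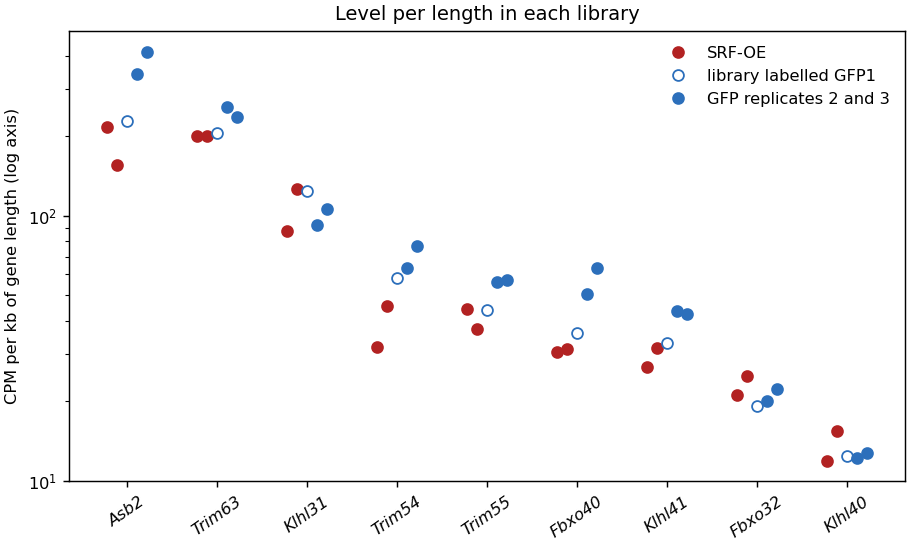
CPM per kb of gene length (vertical log axis) for the 9 genes in order of their mean, with SRF-OE in red, GFP replicates 2 and 3 in blue and the library labelled GFP1 open. Levels run from about 12 CPM per kb for Klhl40 to 415 CPM per kb for Asb2 in GFP replicate 3.

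Markers of cells were read beside these values. All 12 cardiomyocyte markers had a negative log2 fold change in both fits, and 0 passed in edgeR. Their median was -0.47 with the 5 libraries and -0.60 without the library labelled GFP1. At an unadjusted p under 0.05, 1 and 5 of the 12 were lower, beside 7.59% and 14.0% of all genes. DESeq2 called 4 and 7 lower, beside 19.7% of 1079 and 6.16% of 13521 genes to which it gave an adjusted p. When libraries were scaled to the sum of these markers in place of TMM, a setting added after the data were seen, the median of all genes moved to 0.49, and to 0.66 without the library labelled GFP1. On that scale *Asb2* (-0.32 and -0.40), *Fbxo40* (-0.18 and -0.24) and *Trim54* (-0.26 and -0.20) kept a negative log2 fold change without passing, while *Trim63* (0.26 and 0.32), *Trim55* (0.13 and 0.16) and *Klhl41* (0.06 and 0.09) turned positive. *Fbxo32* (0.76, edgeR adjusted p = 0.0085), *Klhl31* (0.76, adjusted p = 0.0090) and *Klhl40* (0.78, adjusted p = 0.016) passed as higher without the library labelled GFP1. In that fit 6077 of the 13397 genes tested passed as higher and 80 as lower (0.597%). These 3 values lay near the median of all genes, 0.66, so the calls do not set the 3 genes apart. Per 1000 counts of the summed markers, *Asb2* had 4.84 and 3.96 in SRF-OE, 4.81 in the library labelled GFP1 and 5.60 and 6.02 in GFP replicates 2 and 3.
The 10 endothelial markers summed to 907 and 355 CPM in SRF-OE and 703, 382 and 373 CPM in GFP replicates 1 to 3, and the 10 fibroblast markers to 945 and 470 CPM and to 516, 448 and 392 CPM. The 8 leukocyte markers stayed between 11.4 and 32.4 CPM. Of the endothelial markers 10 of 10, and of the fibroblast markers 9 of 10, had a positive log2 fold change in both fits. The 8 smooth muscle and pericyte markers summed to 862 and 755 CPM in SRF-OE and 800, 1152 and 1638 CPM in GFP, lower in SRF-OE than in GFP replicates 2 and 3, while their median log2 fold change was positive (0.56 and 0.98). *Acta2*, the smooth muscle actin that immature CMs also express, had -1.45 and *Tagln* 2.92 without the library labelled GFP1. The 18 skeletal muscle markers summed to 1497 and 4903 CPM in SRF-OE, 3617 CPM in the library labelled GFP1 and 121 and 160 CPM in GFP replicates 2 and 3, carried by *Casq1* and *Myl1*, while *Myod1*, *Myog*, *Myf5*, *Myf6* and *Pax7*, which define the skeletal muscle lineage, were each at or under 0.16 CPM. With the 5 libraries, 0 of these other markers passed in edgeR. Without the library labelled GFP1, 1 of 10 fibroblast, 1 of 8 smooth muscle and pericyte and 3 of 8 skeletal muscle markers tested passed as higher. Among the smooth muscle and pericyte markers 1 passed as lower, and 0 endothelial or leukocyte markers passed. Of all genes, 1.98% passed as higher and 0.970% as lower. The part of these markers in the differences of the 9 genes was not tested.

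**Figure D4:**
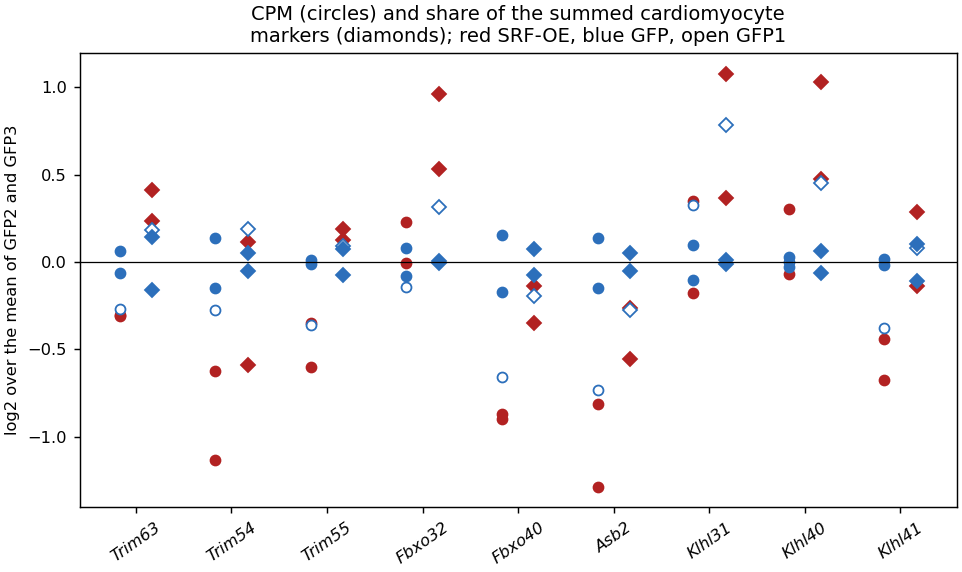
Log2 level of each gene over the mean of GFP replicates 2 and 3 (vertical axis), as CPM (circles) and per summed cardiomyocyte markers (diamonds), in SRF-OE (red), GFP (blue) and the library labelled GFP1 (open). Asb2 and Fbxo40 stay below 0 in both SRF-OE libraries on either scale. Fbxo32, Klhl31, Klhl40, Trim63 and Trim55 lie above 0 in both when taken relative to the markers. On the marker scale the fitted median of all genes, without the library labelled GFP1, was 0.66.

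Other genes of the pathway were read from lists of known function. With the 5 libraries none of the genes in these lists passed in edgeR, with a smallest adjusted p of 0.35. At an unadjusted p under 0.05 with the 5 libraries, 2 of 17 other ligases, 6 of 14 other ASB genes, 5 of 41 other Kelch genes, 4 of 16 cullins and adaptors, 4 of 18 substrates and partners, 0 of 17 regulators and 1 of 34 proteasome genes were lower, beside 7.59% of all genes. At that cutoff 1 other Kelch gene, 2 substrates and partners and 1 regulator were higher, and 0 genes of the other lists, beside 6.35% of all genes. Values in the next paragraphs are those without the library labelled GFP1, in which calls had adjusted p from 0.047 to 0.0499 and were lost with upper quartile scaling (0.052 to 0.062). The sign of each gene called here was the same under the 4 scalings tried, but scaled to cardiomyocyte markers most of the lower ones came near 0 and did not pass, *Klhl7* and *Klhl21* at -0.03 each, *Asb8* at -0.07, *Cand2* at -0.15 and *Nebl* at -0.24 (adjusted p = 0.92, 0.91, 0.78, 0.56 and 0.36). *Asb15*, at -0.65 (adjusted p = 0.037), passed on that scale too. The median of all genes on that scale was 0.66. The shares of all genes to set beside the counts below are 0.970% lower and 1.98% higher by edgeR, 14.0% and 14.4% at an unadjusted p under 0.05, and 6.16% lower by DESeq2, which called 853 genes higher.

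Of the other muscle ubiquitin ligases, 17 of 17 were tested and 0 passed in edgeR, with 5 lower and 0 higher at an unadjusted p under 0.05, and DESeq2 called 3 lower. The largest values were those of *Trim72*, the membrane repair protein MG53 (log2 fold change -1.41, edgeR adjusted p = 0.053), *Fbxo31* (-0.96, 0.053) and *Fbxl22*, an F-box protein of the cardiac Z-line (-0.91, 0.12). Among 14 tested of 17 other ASB genes, 2 passed in edgeR as lower and 0 as higher, 7 were lower at an unadjusted p under 0.05, and DESeq2 called 5 lower. *Asb15* fell by 1.26 on the log2 scale (edgeR adjusted p = 0.049), from 88.3 and 79.4 CPM in GFP replicates 2 and 3 to 41.7 and 28.1 CPM in SRF-OE. *Asb8* fell by 0.70 (edgeR adjusted p = 0.048), and *Asb10* and *Asb5* had log2 fold changes of -1.08 and -1.09 without passing. The median of the 14 genes was -0.47, close to the -0.46 of the 9 genes, and became 0.16 on the scale of the cardiomyocyte markers, as did that of the 9 genes. The median of all genes was 0.04 under TMM scaling and 0.66 on the marker scale, above both lists on either scale.
Of the other Kelch genes, 41 of 45 were tested, 1 passed in edgeR as higher and 2 as lower, 4 were higher and 10 lower at an unadjusted p under 0.05, and DESeq2 called 2 higher and 4 lower. *Klhl5* rose by 1.13 on the log2 scale (edgeR adjusted p = 0.048), and *Klhl7* and *Klhl21* fell by 0.66 and 0.65 (edgeR adjusted p = 0.0499 for each). *Klhl33* and *Klhl32* had -0.94 and -0.89 without passing (adjusted p = 0.14 for each). Among 16 cullins and their adaptors, *Cand2*, the muscle form of the factor that exchanges receptors on cullins, fell by 0.77 (edgeR adjusted p = 0.047) and no other passed, with *Cul7* at -0.59 and *Cul2* at -0.44. The median of this list was -0.02.

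Known substrates and partners differed in direction. *Neb*, the thin filament protein that KLHL40 and KLHL41 bind, was at 27.3 and 48.5 CPM in SRF-OE, 24.4 CPM in the library labelled GFP1 and 7.66 and 9.71 CPM in GFP replicates 2 and 3. It rose by 2.14 on the log2 scale (standard error 0.31, edgeR adjusted p = 0.047), against 1.44 (adjusted p = 0.35) with the 5 libraries. *Nebl*, the related cardiac protein nebulette, fell by 0.86 (edgeR adjusted p = 0.047). The other 16 of the 18 genes tested did not pass in edgeR, and DESeq2 called 3 of the 18 higher and 4 lower. *Lmod3*, the leiomodin that KLHL40 stabilises, had -0.85 (edgeR adjusted p = 0.081), with 80.6 and 50.6 CPM in SRF-OE and 85.4, 114 and 124 CPM in GFP replicates 1 to 3. *Irs1*, a target of FBXO40, had 0.46 (adjusted p = 0.29) and *Flnc*, a filamin, 0.33 (adjusted p = 0.49). *Mybpc3* and *Ckm* had -1.07 and -1.03 without passing (adjusted p = 0.071 and 0.080).
Of 17 upstream regulators tested, *Igf1r*, the receptor whose signalling restrains FOXO factors, rose by 0.86 (edgeR adjusted p = 0.0499) and no other passed. *Foxo1*, an activator of *Trim63* and *Fbxo32*, had 0.24 (adjusted p = 0.29), *Foxo3* -0.47 at under 2 CPM in every library, and *Klf15*, a target of the glucocorticoid receptor, -0.48 (adjusted p = 0.28). *Ppargc1a*, a coactivator of mitochondrial genes, had -0.38 (adjusted p = 0.37). *Mstn*, which encodes myostatin, was under 1 CPM in every library. Of the 34 proteasome genes, 0 passed in edgeR in either direction, 1 was lower and 0 higher at an unadjusted p under 0.05, and DESeq2 called 0, with a median of 0.01. *Psme4*, a proteasome activator, had -0.49 (adjusted p = 0.13), and *Psma2* and *Psmd7* had 0.26 and 0.25.

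**Figure D5:**
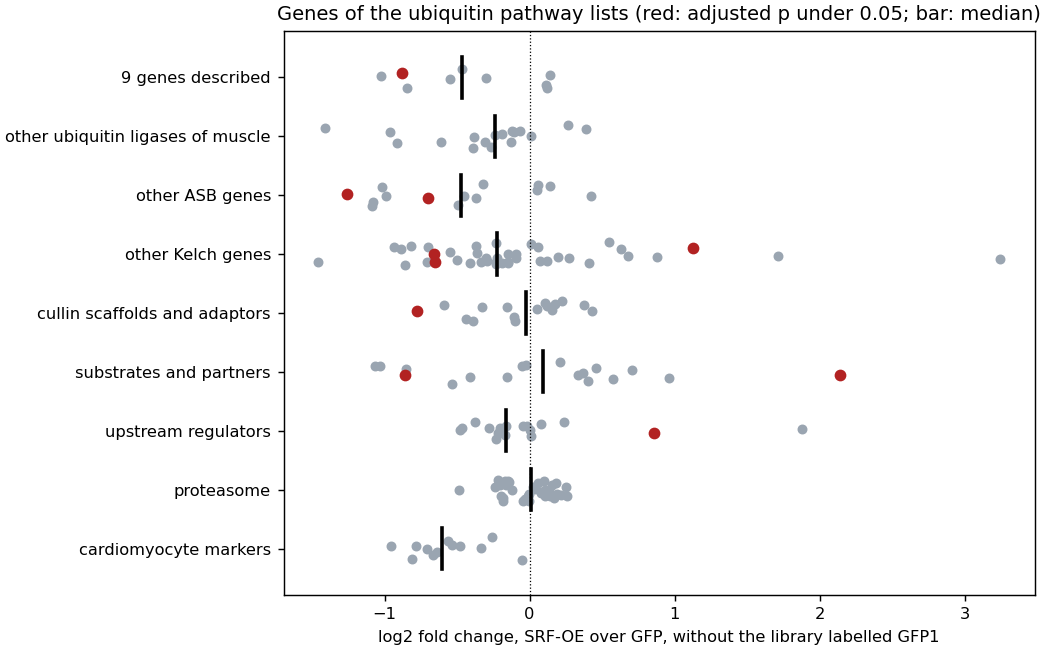
Log2 fold change without the library labelled GFP1 (horizontal axis) for each gene tested in the 9 genes described, the 7 pathway lists and the cardiomyocyte markers, with calls at an adjusted p under 0.05 in red and a bar at each median. The medians of the 9 genes and the other ASB genes lie at -0.46 and -0.47 and that of the proteasome at 0.01 under TMM scaling, and at 0.16, 0.16 and 0.64 when scaled to cardiomyocyte markers.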

How the data were processed

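Per the labels, total RNA of FACS-sorted CMs was reverse transcribed and amplified with a SMART-Seq kit. Libraries were made with Nextera XT and sequenced single-ended. The authors used STAR 2.5.3a on mm10 and deposited raw counts per gene from featureCounts (Subread 1.5.2), per the submitters' processing notes. Strand and multiple mapping settings are not given in the sources used here. The deposited column of another kind, headed as SRF-OE replicate 1, was used as gene length in bp, a reading taken from its values, and 52.3% of 20929 genes lay within 5% of their GENCODE M21 basic exon length. Columns were assigned to libraries by name alone, with 0 columns left unused. Tests planned for 6 libraries used 5.

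Counts were filtered with filterByExpr, scaled by TMM and tested by glmQLFTest after glmQLFit (edgeR 4.0.16, R 4.3.3), with Benjamini-Hochberg adjustment over all genes tested. The standard error is the size of the log2 fold change over the square root of F. Intervals at 95% use the t distribution of that fit. Exact permutation tests cannot give a p under 0.1 with 2 libraries against 3, or under 0.33 with 2 against 2. DESeq2 1.42.0 and the other settings are under the closing section. The fits were tested on simulated counts: planted changes were mostly recovered with the right sign, and false calls exceeded the nominal rate, more so with 4 libraries and with DESeq2. Members, lists and the weight given to the library labelled GFP1 were chosen with earlier results of these data known. The genes named are the 9 members, 8 chosen partners and regulators, genes of the pathway lists past the cutoff, and up to 3 genes with the largest values in a list at a mean of at least 5 CPM. Marker genes named, and *Ddx3y* and *Xist*, were chosen after their values were seen.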

Additional observations from a re-analysis of the deposited data

How the results depend on the processing

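Over 234 values of the 9 genes under other settings, 187 kept their direction and side of the cutoff, 24 passed where the reported fit did not, 5 lost the call and 18 turned sign. The lowest count of any of the 9 genes in a library was 395. With the 5 libraries as labelled, genes called went from 0 higher and 0 lower to 11 and 213 with DESeq2 at a filtering target of 0.05, 17 and 29 without independent filtering, and 582 and 432 with the replicate block. Of the 9 genes, DESeq2 called 1 lower at that target and the replicate block 3 (*Asb2*, *Fbxo40* and *Trim54*). Leaving out one library gave 0 to 265 higher, 0 to 130 lower and 0 to 1 of the 9 lower, with calls only when the library labelled GFP1 was the one left out.

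Without that library, 265 higher and 130 lower became 88 and 9 with upper quartile scaling, 1660 and 1303 with no filter, 55 and 9 with a minimum of 10 counts per library, 853 and 833 with DESeq2, 722 and 690 with DESeq2 without independent filtering, 547 and 392 with the replicate block, and 6077 and 80 when scaled to cardiomyocyte markers. DESeq2's size factors gave 206 lower. The 1 of the 9 called lower became 0 with upper quartile scaling, a minimum of 10 counts or the marker scaling, 5 with no filter, 3 with each DESeq2 setting and 2 with the replicate block, and the marker scaling called 3 higher. Leaving out a further library gave 0 to 1640 higher, 0 to 1638 lower and 0 to 5 of the 9 lower. Where 1 library is left in a group, it is assumed to vary like the others.

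*Klhl31* turned to 0.034 with upper quartile scaling, 0.014 with a minimum of 10 counts, 0.087 with the replicate block, 0.043 with a sex term and 0.45 with the marker scaling of the 5 libraries. With the marker scaling, *Trim63* turned to 0.26 and 0.32, *Trim55* to 0.13 and 0.16 and *Klhl41* to 0.063 and 0.089. With one library left out, *Klhl31* ranged from -0.30 to 0.23 with the 5 libraries and from -0.18 to 0.35 with the 4, *Klhl40* from -0.074 to 0.30 and -0.067 to 0.31, and *Fbxo32* with the 4 from -0.0078 to 0.23. The cause was not tested. The replicate numbers were not taken as pairs: deviations of same-numbered libraries correlated across genes at 0.37 for number 2 and -0.06 for number 3 with the 5 libraries, and at 0.20 with the 4.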
